A study of Mus musculus with 2 samples.

Results

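The Mir378 family of the mouse is a group of 4 miRNA genes, Mir378a, Mir378b, Mir378c and Mir378d, found by taking every counted gene whose GENCODE M21 name is Mir378 or Mir378 followed by a letter. They are 4 of 2202 miRNA genes counted. The small RNA libraries came from C2C12 myotubes after 72 h of differentiation. C2C12 is a mouse myoblast line, bought from ATCC, that goes back to injured thigh muscle of C3H mice and fuses into multinucleated myotubes in culture. There was 1 group of 2 biological replicates from separate biosamples of the same line, with no treatment and no undifferentiated control, so values were compared between genes and between the libraries.

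MicroRNAs are cut from hairpin transcripts into short mature strands that guide silencing complexes to matching mRNAs, mainly through the seed, bases 2 to 8 of the mature strand. Mir378a lies inside Ppargc1b, which encodes PGC-1beta, a coactivator of oxidative and lipid metabolism. Its 2 mature strands have been reported to lower carnitine acetyltransferase and the Mediator subunit MED13 in mice, and miR-378a has been reported to rise during myoblast differentiation and to repress MyoR, an antagonist of MyoD. Mir378b, Mir378c and Mir378d are annotated as its relatives by sequence.

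The relatives of Mir378a are shown by the mature sequences that RefSeq (build GRCm38.p6) gives, 3 of the 4 genes having an entry in the table used. They are shown because nearly identical mature strands decide which gene a read can be assigned to. Each line gives the RNA 5′ to 3′, with the seed in capitals.
Mir378b (chr11:88352839-88352858, plus strand): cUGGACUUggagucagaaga
Mir378c (chr14:46954905-46954925, minus strand): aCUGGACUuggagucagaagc
Mir378d (chr10:126710355-126710376, minus strand): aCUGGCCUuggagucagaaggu
The mature strands of Mir378b and Mir378c share an unbroken run of 19 bases, which begins at base 1 of Mir378b and base 2 of Mir378c. Their seeds are therefore the same stretch read from starts 1 base apart, UGGACUU and CUGGACU, and differ as seeds. Mir378d shares a run of 14 bases with each of them. Against Mir378c, counted from the 5′ end of Mir378c, it carries A6C within the seed and C21G near the 3′ end. None of these 3 seeds was found in another of the 1738 mouse mature miRNAs searched. Mir378a was not compared here.

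The hairpins around these strands are shown next because the mature strand sits in different places, here in capitals.
Mir378b hairpin: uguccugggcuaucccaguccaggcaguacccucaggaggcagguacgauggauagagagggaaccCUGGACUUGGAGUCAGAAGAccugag
Mir378c hairpin: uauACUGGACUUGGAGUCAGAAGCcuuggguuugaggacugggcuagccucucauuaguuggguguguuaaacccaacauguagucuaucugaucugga
Mir378d hairpin: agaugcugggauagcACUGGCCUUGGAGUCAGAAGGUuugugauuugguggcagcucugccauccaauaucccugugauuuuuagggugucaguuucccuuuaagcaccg
In Mir378b the mature strand takes bases 67 to 86 of 92, close to the 3′ end of the hairpin. In Mir378c it takes bases 4 to 24 of 99, and in Mir378d bases 16 to 37 of 110, both near the 5′ end. RefSeq lists 1 mature strand for each of them, as for 347 of 1005 mouse hairpins in the table. Outside the mature strand the hairpins shared no longer run with each other than the mature strands did, 19 bases for Mir378b and Mir378c and 14 bases for the other pairs. No run of 20 bases was shared with any other of the 1005 hairpins on either strand. The runs that Mir378a shares with its relatives were not analysed here. Folded with RNAfold, the minimum free energy was -31.1 kcal/mol for Mir378b, -27.0 kcal/mol for Mir378c and -35.0 kcal/mol for Mir378d. Per base that was -0.338, -0.273 and -0.318 kcal/mol, weaker than the median of -0.406 kcal/mol over the 1005 hairpins. Only 6.77% of hairpins were less stable per base than Mir378c, against 17.0% for Mir378d and 24.1% for Mir378b.

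The genes sit on 4 chromosomes (mm10 coordinates, 1-based). Mir378a (ENSMUSG00000105200.1) spans 61397835 to 61397900 on the minus strand of chromosome 18. It lies in intron 1 of Ppargc1b in all 3 annotated transcripts of that gene, on the same strand and 2531 bp from its start. Mir378b (ENSMUSG00000092985.1) spans 88352773 to 88352864 on the plus strand of chromosome 11. It lies within an intron of Msi2, an RNA-binding protein gene, but on the opposite strand. Mir378c (ENSMUSG00000099036.1) spans 46954830 to 46954928 on the minus strand of chromosome 14, within an intron of Samd4 and again on the opposite strand. Mir378d (ENSMUSG00000098756.1) spans 126710282 to 126710391 on the minus strand of chromosome 10 and overlaps no other annotated gene. Its nearest neighbour is the long non-coding RNA gene Gm47966, 3614 bp away. Mir378a was thus the only one of the 4 with a protein-coding host on its own strand.

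Replicate 1 held 7581366 reads on the own strand of a miRNA gene and replicate 2 held 9865298. Levels below are counts-per-million of these reads (CPM), not divided by the length of the annotated gene. A count of 3, the floor for detection, was worth 0.396 and 0.304 CPM in replicates 1 and 2. Intervals given here are 95% exact Clopper-Pearson intervals and cover the counting error of reads in each library only. Multimapping reads, of which there were 3378438 and 3295854 in replicates 1 and 2, were counted in a line of their own, so reads that fit more than 1 Mir378 gene equally well are missing from all 4 counts, and the levels of all 4 are uncertain to that extent. Counts were per gene, so the mature strands of a hairpin cannot be told apart. For the labelled cell type, all 4 myotube miRNAs of the marker list (Mir206, Mir133b, Mir499 and Mir208b) were detected. Their sums were 355274 and 428236 CPM in replicates 1 and 2, of which Mir206 gave 340841 and 416794 CPM. The Mir1a and Mir133a genes, which were not on that list, were near or below the detection limit. Mir1a-1 had 3.03 and 2.84 CPM, while Mir1a-2, Mir133a-1 and Mir133a-2 did not reach the limit in both libraries. Reads that fit more than 1 gene equally well are missing from these counts too. Low counts of the Mir1a and Mir133a genes therefore do not show that their mature strands were scarce.

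Mir378a held nearly all reads of the family. It had 663482 reads in replicate 1 and 1366156 reads in replicate 2. That was 87515 CPM (interval 87314 to 87716 CPM) and 138481 CPM (138265 to 138697 CPM), a mean of 112998 ± 36038 CPM (SD, n = 2). Of all miRNA reads, 8.75% in replicate 1 and 13.8% in replicate 2 came from this gene. Its share of the reads of the 4 Mir378 genes was 99.88% in replicate 1 and 99.87% in replicate 2.

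The 3 relatives were detected at low levels. Whether any of the reads counted for them came from Mir378a was not tested, since its sequence was not compared with theirs. Mir378c had 542 and 1218 reads in replicates 1 and 2, or 71.5 CPM (65.6 to 77.8 CPM) and 123 CPM (117 to 131 CPM). Mir378d had 219 and 467 reads, or 28.9 CPM (25.2 to 33.0 CPM) and 47.3 CPM (43.1 to 51.8 CPM). Mir378b had 56 and 116 reads, or 7.39 CPM (5.58 to 9.59 CPM) and 11.8 CPM (9.72 to 14.1 CPM). Their means were 97.5 ± 36.7, 38.1 ± 13.0 and 9.57 ± 3.09 CPM (SD, n = 2). The order Mir378a, Mir378c, Mir378d, Mir378b was the same in both libraries, and the ranges of neighbouring genes in that order did not overlap. All 4 genes reached 2 CPM in both libraries, the limit used for detection, which 12.4% of the 2202 counted genes did.

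**Figure D1:**
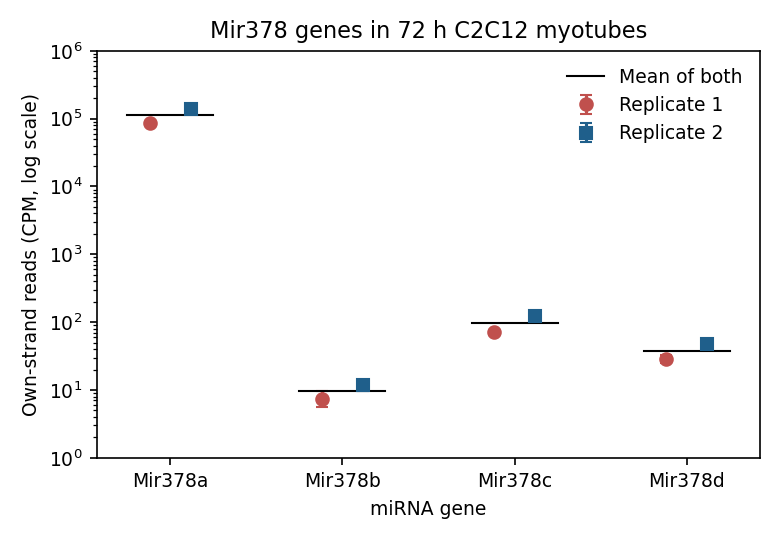
Own-strand level in CPM (log scale) of the 4 Mir378 genes, with replicate 1 as circles, replicate 2 as squares, 95% exact Clopper-Pearson intervals as bars and the mean of both as a line. Mir378a lies about 3 orders of magnitude above Mir378c, the next of the family, and each gene is lower in replicate 1.

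On the log2 scale with a pseudocount of 0.5 reads, the level of Mir378a exceeded that of Mir378c by 10.19 ± 0.09, that of Mir378d by 11.54 ± 0.03 and that of Mir378b by 13.52 ± 0.001 (SD, n = 2). The SD for Mir378b understates the uncertainty of that ratio, since Mir378b had only 56 and 116 reads in replicates 1 and 2. The intervals of its level were 5.58 to 9.59 CPM and 9.72 to 14.1 CPM. As a fold, Mir378a was 1223 and 1121 times Mir378c in replicates 1 and 2, 3023 and 2922 times Mir378d, and 11743 and 11727 times Mir378b. Among the relatives, the level of Mir378c exceeded that of Mir378d by 1.34 ± 0.05 and that of Mir378b by 3.33 ± 0.09 on the log2 scale (SD, n = 2). The annotated genes differ in length by at most 1.67-fold between Mir378d and Mir378a, far less than these gaps. With 2 libraries an exact paired permutation test cannot give a p below 0.5, so these gaps were not tested.

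The proportions within the family hardly moved between the libraries although the levels did. Of the reads of the 4 genes, Mir378c took 0.0816% (interval 0.0749% to 0.0888%) in replicate 1 and 0.0890% (0.0841% to 0.0942%) in replicate 2. Mir378d took 0.0330% (0.0287% to 0.0376%) and 0.0341% (0.0311% to 0.0374%). Mir378b took 0.00843% (0.00637% to 0.0109%) and 0.00848% (0.00701% to 0.0102%). For each of the 3 genes the intervals of the libraries overlapped.

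**Figure D2:**
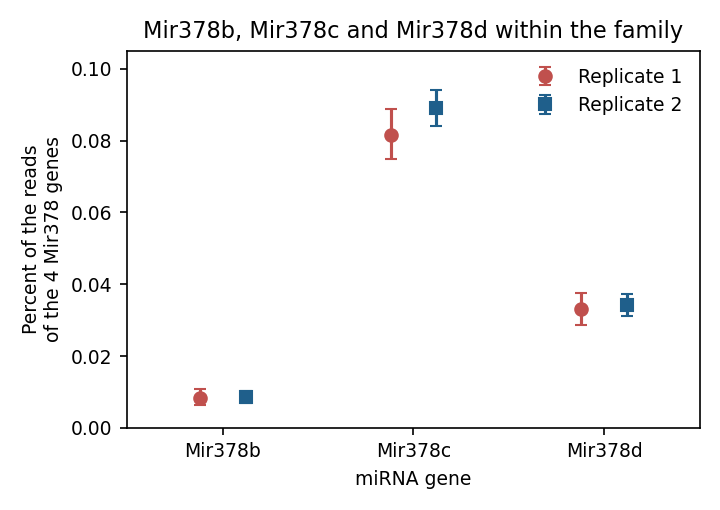
Reads of Mir378b, Mir378c and Mir378d as a percentage of the reads of the 4 Mir378 genes, with replicate 1 as circles, replicate 2 as squares and 95% exact Clopper-Pearson intervals as bars. The intervals of the libraries overlap for each gene, with Mir378c at 0.0816% and 0.0890%, Mir378d at 0.0330% and 0.0341% and Mir378b at 0.00843% and 0.00848%.

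The strand of the reads matters for Mir378a because another annotated miRNA gene, Gm25301 (ENSMUSG00000093026.1), covers it on the other strand. Gm25301 runs from 61397813 to 61397925 on the plus strand of chromosome 18 and contains all 66 bp of Mir378a. The files do not name their count columns, and the own-strand column was recognised from its values. Over all genes it held 7581366 and 9865298 reads in replicates 1 and 2, against 741929 and 1485385 in the opposite-strand column. The strand shares here and below hold only under that reading of the columns, and their intervals do not cover it. On its own strand Gm25301 had 2 reads in each library, against the 663482 and 1366156 reads of Mir378a. Mir378a likewise had 2 reads on its opposite strand in each library, so 99.9997% (interval 99.9989% to 100%) of the stranded reads at Mir378a in replicate 1 and 99.9999% (99.9995% to 100%) in replicate 2 were on the Mir378a strand. In the count that ignored strand Mir378a was listed at 0 in both libraries, and Gm25301 was listed at 0 and 2 reads in replicates 1 and 2. The opposite-strand count of Gm25301 held 663482 and 1366158 reads. In replicate 1 this equalled the count of Mir378a, and in replicate 2 it was slightly above the 1366156 reads of Mir378a.

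Mir378a made up most of the reads that strand-blind counting could not place. The line of ambiguous reads held 741854 reads in replicate 1 and 1485288 in replicate 2 when strand was ignored, and 0 in each library when the own strand was counted. The reads of Mir378a equalled 89.4% and 92.0% of those totals. In all, 32 pairs of counted miRNA genes overlap on opposite strands, and their own-strand reads summed to the same 741854 and 1485288. Mir378b, Mir378c and Mir378d overlap no other miRNA gene. Their strand-ignored counts equalled their own-strand counts, and they had no read on the opposite strand in either library, which for Mir378b, with the fewest reads, puts the lower bound of the interval of the own-strand share at 93.6% in replicate 1 and 96.9% in replicate 2.

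**Figure D3:**
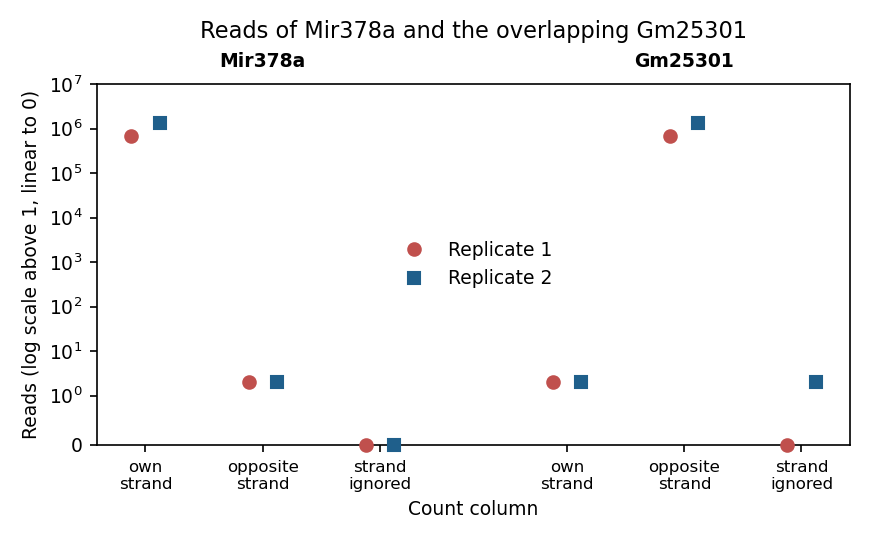
Reads of Mir378a (left) and of Gm25301, the annotated gene on the other strand (right), in the 3 deposited count columns, with replicate 1 as circles and replicate 2 as squares on an axis that is logarithmic above 1 read and linear down to 0. Mir378a has 663482 and 1366156 reads on its own strand and 0 when strand is ignored. Gm25301 has 663482 and 1366158 reads on its opposite strand.

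By counted reads, Mir378a ranked 2nd of 2202 miRNA genes in each library, behind the muscle miRNA Mir206, which had 340841 and 416794 CPM. Multimapping reads were assigned to no gene. Ranks here and in the lists below therefore hold for the counted reads only, and genes whose reads multimap may be placed too low. The level of Mir378a relative to Mir206 was -1.78 ± 0.26 on the log2 scale (SD, n = 2), with Mir206 3.89-fold higher in replicate 1 and 3.01-fold higher in replicate 2. Just below Mir378a came Mir21a, Mir22 and Mir143 in replicate 1, at 82317, 47786 and 46403 CPM. In replicate 2 they were Mir22, Mir21a and Mir99a, at 61207, 39501 and 27699 CPM. Mir378a was 1.06-fold above Mir21a in replicate 1 and 3.51-fold above it in replicate 2. The library ranges of these genes did not overlap that of Mir378a, but the gap to Mir21a in replicate 1 was smaller than the spread of either gene between libraries. The relatives stood far lower, at ranks 150 and 123 for Mir378c, 178 and 155 for Mir378d and 221 and 203 for Mir378b in replicates 1 and 2, out of 632 and 631 genes with a read.

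Mir378a was 986 times the median level of the 274 detected genes in replicate 1 and 1594 times that median in replicate 2. The genes most like it in level, by Euclidean distance in log2(CPM + 1) over the 2 libraries, were Mir22 at 1.47, Mir21a at 1.81, Mir206 at 2.52, Mir143 at 2.65 and Mir99a at 2.80. None lay within 1 unit.

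All 4 Mir378 genes were lower in replicate 1 than in replicate 2, by similar amounts. The log2 ratio of replicate 1 to replicate 2, with library sizes scaled by TMM, was -0.69 for Mir378a, -0.82 for Mir378c, -0.74 for Mir378d and -0.69 for Mir378b. In the direction of replicate 2 these are folds of 1.62, 1.76, 1.67 and 1.62. All 4 passed an exact two-sided binomial test whose p-values were adjusted by the Benjamini-Hochberg method across the 415 genes that had at least 10 reads, where 55.7% of the genes tested passed in either direction, 30.4% being higher and 25.3% lower in replicate 1. The adjusted p was 0.00562 for Mir378b, 4.08e-10 for Mir378d and 4.47e-29 for Mir378c, and for Mir378a it was below the range of the software. This test sets the difference against counting error in these libraries and compares no conditions.

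Against the spread of other genes the shift was not unusual in size. Of the 274 detected genes, 109 differed between the libraries by as much as Mir378a or more in either direction. Over all 274 the median difference was 1.43-fold and the biological coefficient of variation was 0.435, and the SD of Mir378a was 31.9% of its mean, against 32.3% for Mir378b, 37.7% for Mir378c and 34.2% for Mir378d. Among 64 other genes that averaged at least 1000 CPM, those with a log2 ratio nearest to that of Mir378a were Mir744 (-0.63), Mir130b (-0.76), Mir351 (-0.60), Mirlet7b (-0.59) and Mir362 (-0.82). They lie on chromosomes 11, 16, X, 15 and X, none on the chromosome of Mir378a.

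**Figure D4:**
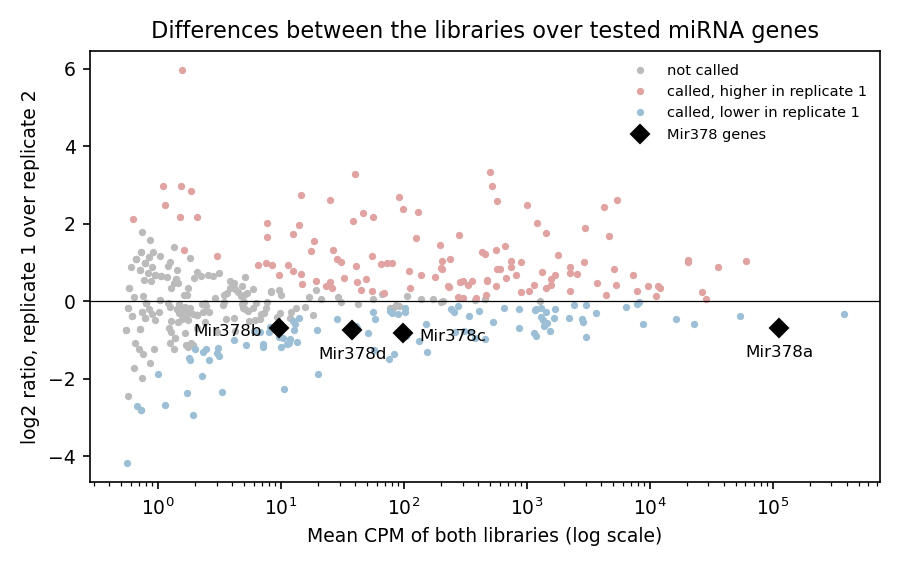
The log2 ratio of replicate 1 to replicate 2 against the mean CPM (log scale) for the 415 miRNA genes tested, coloured by whether and in which direction an exact binomial test called them. The 4 Mir378 genes (black diamonds) lie between -0.82 and -0.69 from the lowest level of the family to the highest, inside the spread of the other genes.

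Of 20 marker miRNAs of other cell types, 10 had enough reads to be tested, and 5 of them were called higher and 1 lower in replicate 1. Over all genes tested, 55.7% were called, 30.4% higher and 25.3% lower in replicate 1. Of 4 blood markers 2 were detected, with summed levels of 105 and 182 CPM in replicates 1 and 2, led by Mir142 at 89.0 and 178 CPM. The endothelial marker Mir126a had 217 and 42.9 CPM. Of 5 epithelial, 6 neuronal and 1 hepatic markers none was detected, with sums in replicates 1 and 2 of 4.35 and 2.13 CPM, 0 and 0.101 CPM and 1.06 and 0.405 CPM. Mir200a, Mir429, all 3 Mir124a genes, Mir9-1 and Mir9-2 had no counted read in either library. Multimapping reads lie outside these counts, so a count of 0 does not show that a mature strand was absent. Brown fat markers, of which 2 of 3 were detected, summed to 107 and 108 CPM. Their part in the shift of the Mir378 genes was not tested.

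Among miRNAs reported to act in muscle differentiation, Mir378a was 2nd of 32 listed genes by counted reads in each library. The list held 50.9% and 61.2% of miRNA reads in replicates 1 and 2, and 17.2% and 22.6% of these were from Mir378a. Mir322, which is reported to promote cell cycle exit, followed it at 20298 ± 10297 CPM and Mir133b, which shares a transcript with Mir206, at 12089 ± 2151 CPM (SD, n = 2). Of the 32 genes, 27 were detected and 31 tested, and between the libraries 16 were higher and 9 lower in replicate 1. Detection stood at 84.4%, beside 12.4% of all counted genes. As the list was chosen with earlier results of these data known, its detection and levels were not tested as traits of muscle miRNAs. The shares called higher and lower were 51.6% and 29.0% of those tested, beside 30.4% and 25.3% over all genes tested. The median level of the list was 419 CPM, beside 11.2 CPM over all genes tested.

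Among miRNAs reported to act in mitochondrial, fat or energy metabolism, Mir378a had the most counted reads of 31 matched genes in each library. It gave 41.7% of the reads of the list in replicate 1 and 61.5% in replicate 2. Without it the list held 12.2% and 8.67% of miRNA reads. Next came Mir143 at 35574 ± 15314 CPM, Mir23a at 26596 ± 3628 CPM and Mir133b (SD, n = 2). Of the 31 genes, 27 (87.1%) were detected and 29 tested, of which 18 were higher and 7 lower in replicate 1, or 62.1% and 24.1% of those tested, beside 30.4% and 25.3% over all genes tested. The share in the direction of Mir378a was thus near that of all genes. The median level of the list was 471 CPM. This list, too, was chosen with earlier results of these data known.

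Of 741 miRNA genes that lie in introns of protein-coding genes on the same strand, Mir378a had the most counted reads in each library. It alone gave 47.6% of their reads in replicate 1 and 65.0% in replicate 2. The next in this class were Mir23b at 11582 ± 2402 CPM, Mir99b at 11168 ± 902 CPM and Mir149 at 7867 ± 180 CPM (SD, n = 2), each below the lower value of Mir378a. Of the 741 genes, 115 were detected and 185 tested, of which 54 were higher and 44 lower in replicate 1. The shares, 15.5% detected, 29.2% higher and 23.8% lower, were near the 12.4%, 30.4% and 25.3% over all genes. The mRNA of Ppargc1b is not measured by these tables, so the level of Mir378a was not set beside that of its host.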

How the data were processed

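MicroRNA counts were taken for 2 libraries of 1 group. The authors deposited unnormalized read counts for each miRNA gene, made against mm10 and annotation M21, per the labels and the text beside each table. That text names no aligner, counter, trimming or filter. Tables have 3 unnamed count columns, read from their values as strand ignored, own strand and opposite strand, and 4 summary lines, which entered neither library sizes nor tests. In replicates 1 and 2 these lines held 3486158 and 4261787 unmapped, 3378438 and 3295854 multimapping and, on the own strand, 903243 and 1027420 unassigned reads.

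All 2202 identifiers matched GENCODE M21, the annotation named by the authors, which gave positions and host genes. Sequences came from RefSeq GRCm38.p6. The own-strand count was used throughout. TMM factors and the biological coefficient of variation came from edgeR 4.0.16 in R 4.3.3, DESeq2 1.42.0 gave alternative size factors, and RNAfold 2.7.2 the folding energies. Exact binomial tests used scipy 1.17.1 in Python 3.11.15 over genes with 10 or more reads, with Benjamini-Hochberg adjustment and a threshold of 0.05. They were tested on simulated counts that held counting error only. That simulation cannot show how the tests behave under the wider spread between these libraries. Log2 ratios carry a pseudocount of 0.5 reads. With 1 group, edgeR's quasi-likelihood test had no contrast to fit. The separate libraries are labelled biological replicates, and p-values measure only the difference between them.

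The members, lists and tests were chosen with earlier results of these data known. Named genes were the Mir378 genes, genes overlapping them and their hosts, rank neighbours, the 5 nearest in level and in ratio, and the 4 highest of each list. Marker miRNAs were listed for cell types, and 1 of 32 metabolic entries, Mir696, had no match. Alternatives were strand-blind counts, other denominators, scalings, filters, pseudocounts and detection limits, and each library left out.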

Additional observations from a re-analysis of the deposited data

Results flagged for a closer look

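Multimapping reads lie outside the counts of the Mir378 genes and exceed the 3 counts that a true count of 0 allows. They numbered 3378438 in replicate 1 and 3295854 in replicate 2, or 5.09 and 2.41 for each read counted for Mir378a. How many of them came from Mir378 hairpins was not tested. With only 2 libraries, all in 1 group, no outliers or group differences were sought.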

How the results depend on the processing

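Of 85 values recomputed under alternatives, 64 were labelled unchanged, 21 moved and none reversed. Unchanged meant equal to the main value or within the replicate SD, or still called in the same direction. For counts of genes or hairpins it meant within a set fold of the main count. The 21 include the alternative values of the biological coefficient of variation, which were labelled moved by rule. A further 40 could not move, being ranks under a rescaled denominator and values with 1 of 2 libraries left out, which always shift by a fixed part of the SD. The count that ignored strand listed Mir378a at 0 CPM and gave it 0% of the family, at a mean rank of 615.5 shared with all genes without a read. No ratio to Mir378a could then be formed. The mean level of Mir378a was 58635 CPM with all reads as the denominator and 185108 CPM without Mir206, and those of the relatives moved with it. The log2 ratio of Mir378a to Mir378b was 13.53 with a pseudocount of 0.1 reads and 13.51 with 1 read. Divided by annotated gene length, an alternative chosen after seeing the data, the log2 ratios of Mir378a to Mir378b, Mir378c and Mir378d were 14.00, 10.78 and 12.27. The biological coefficient of variation was 0.450 with no filter, 0.409 over genes at 100 CPM or more and 0.438 with library totals. At a run of 18 bases, 2 of the 3 hairpins shared one with another hairpin. All 4 Mir378 genes remained called as lower in replicate 1 under other scalings and filters, and in the strand-blind count the 3 relatives were. Over all genes 205 to 231 were called, which is 31.2% of 708 genes with no filter and 85.4% of 240 with 100 or more reads. No paired analysis was possible because there is only 1 group. Depth limits Mir378b most, with 56 and 116 reads.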

Other observations

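Mir378a was not alone in vanishing from the strand-blind count. Of the 32 pairs of miRNA genes that overlap on opposite strands, 20 had reads, and in each of the 20 the gene with more reads was listed at 0 when strand was ignored. By reads summed over the libraries, the next after Mir378a was Mir24-2, opposite Mir3074-2, with 16227 own-strand reads in replicate 1 and 38986 in replicate 2. Mir191, opposite Gm24083, had 22507 and 30680 reads, and Mir30e, opposite Mir30f, had 18255 and 32181 reads. In replicate 1 both exceeded Mir24-2. These genes were picked after their values were seen.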
